A study of Mus musculus with 2 samples.

Results

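Transforming growth factor beta (TGF-beta) signalling was described here through 9 genes measured cell by cell in C57BL/6J mouse eyes, in tissue of the retinal pigment epithelium (RPE), the pigmented layer that supports the photoreceptors, and of the vascular choroid beneath it. The genes were the ligands Tgfb1, Tgfb2 and Tgfb3, the receptors Tgfbr1 and Tgfbr2, the intracellular mediators Smad3 and Smad7, the latency protein gene Ltbp1 and the target gene Tgfbi. They were taken by symbol from the 27998 gene rows of the count matrices, and each symbol stood on 1 row. Mice received NaIO3 (sodium iodate, an oxidising salt used to injure the RPE) into a vein at 20 mg/kg, or phosphate-buffered saline (PBS) in the same volume, and per the labels each treatment lasted 7 days. Age and sex were not given in the sources used here. The eyes of 6 mice were pooled for each treatment, and each pool gave 1 droplet library.

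With 1 library for each treatment no difference below has a replicate check, and no test was possible. Every interval is an exact 95% interval for counting error and covers no other error. The neural retina was removed by dissection and brown hexagonal cells were gathered under a microscope, so which cells entered the droplets also reflects that step. The NaIO3 library had 4058 barcodes and 51168520 unique molecular identifiers (UMIs), and 3812 cells were kept. The PBS library had 4618 barcodes and 51055592 UMIs, and 4216 cells were kept. Only 24 barcodes occurred in both libraries. Levels are CPM, the UMIs of a gene summed over the cells of a group and scaled to a total of 1000000 UMIs for that group.

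TGF-beta ligands are secreted in a latent form, in which the ligand stays wrapped in its own propeptide and is tied by latent binding proteins such as LTBP1 to the extracellular matrix. Integrins, thrombospondin and proteases release the ligand, which binds the type II receptor TGFBR2. TGFBR2 then activates the type I receptor TGFBR1, which phosphorylates SMAD2 and SMAD3, while SMAD7 is induced by the pathway and restrains it. In the eye TGF-beta 2 is the main isoform of the aqueous humour and vitreous, and in cultured RPE the pathway is known for driving a change towards a contractile, matrix-producing cell.

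The 8028 cells formed 35 clusters, which were named from marker genes with the ending "-like". RPE-like cells, marked by Rpe65, Rlbp1, Rgr and Ttr, numbered 1001 in the NaIO3 library (clusters 3, 7, 17, 27 and 30) and 3060 in the PBS library (clusters 1 and 7). Their 8 RPE markers were all detected and together reached 93170 CPM in NaIO3 and 116000 CPM in PBS. Nearly all cells of each of these clusters came from 1 library, and such a division can stem from the library alone. A pigment-led group also carried RPE markers but was led by pigment genes such as Pmel, Dct and Mlana. It held 1242 NaIO3 cells (mainly cluster 2, with 93 cells of cluster 14) and 339 PBS cells (mainly cluster 5). Macrophage-like cells made up 11.99% of NaIO3 cells (457 cells) and 0.546% of PBS cells (23 cells). Surface epithelium-like cells, which carry keratins of the cornea and conjunctiva, numbered 689 and 66, and fibroblast-like cells of the eye's connective tissue numbered 46 and 290. Clusters 12 and 15, with 124 and 89 cells, came from the NaIO3 library only and stayed without a cell type name.

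Over all cells of each library, the ligands Tgfb1 and Tgfb2 and the target Tgfbi stood several-fold higher in NaIO3, and the other 6 genes differed less. Tgfb2 was at 36.5 CPM in the NaIO3 library and 4.17 CPM in the PBS library, a ratio of 8.74 (7.54 to 10.2). Tgfb1, on chromosome 7 (25687002 to 25705077, plus strand, GRCm38), was at 35.7 CPM and 6.61 CPM, a ratio of 5.40 (4.79 to 6.12). Tgfbi was at 31.8 CPM and 7.71 CPM, a ratio of 4.13 (3.68 to 4.64). The receptor gene Tgfbr2 had a ratio of 2.16, Tgfbr1 of 1.55, Smad3 of 1.52, Tgfb3 of 1.43 and Smad7 of 1.25. Ltbp1 was at 7.22 CPM in NaIO3 and 7.88 CPM in PBS, a ratio of 0.917 with an interval of 0.790 to 1.06. These levels join many cell types whose shares differed between the libraries, so the cells that held each gene are given next, with levels ranked over groups of at least 20 cells.

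**Figure D1:**
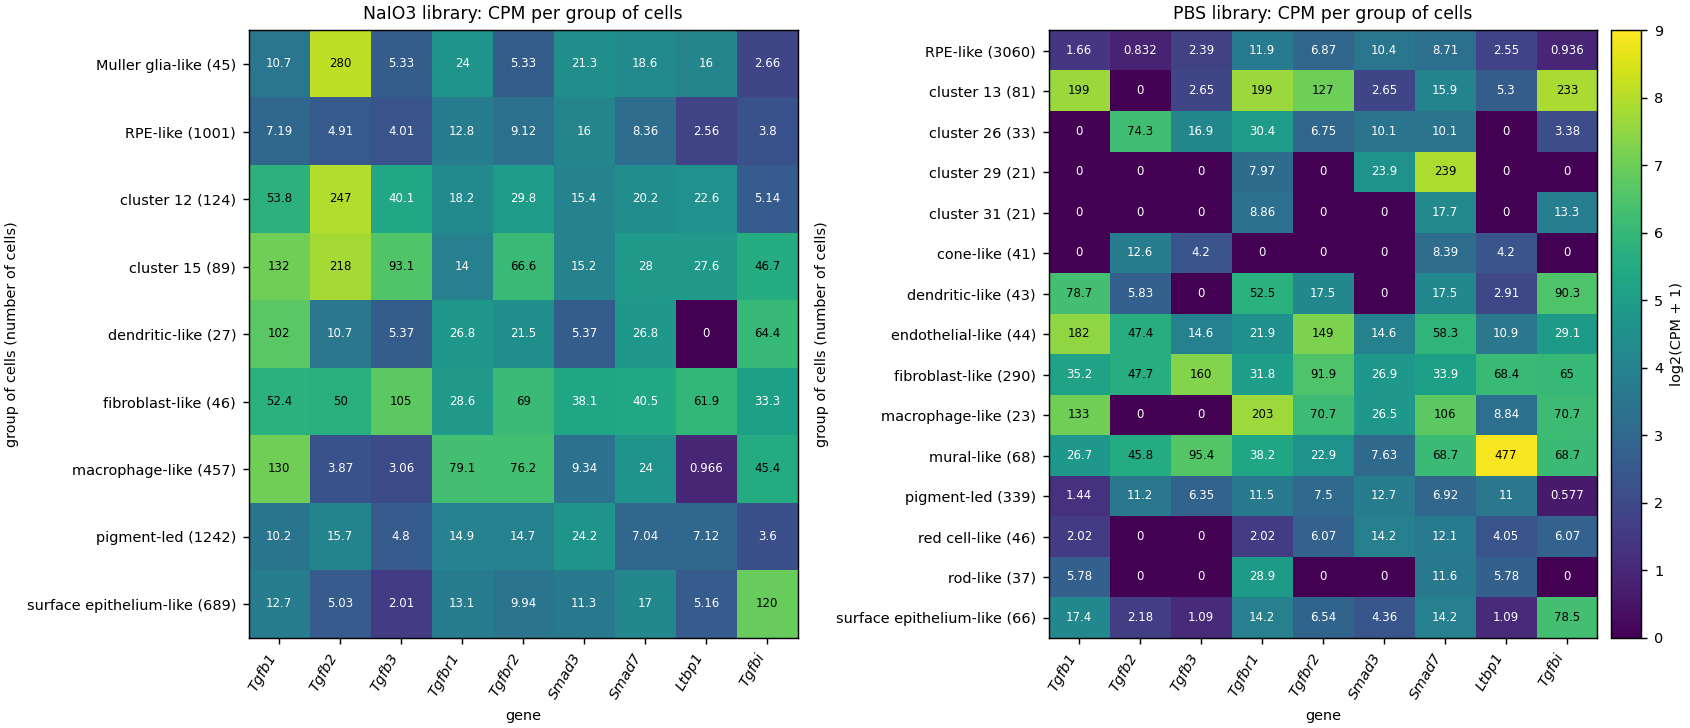
CPM of the 9 genes (columns) in each group of at least 20 cells (rows, with the number of cells) in the NaIO3 library, left, and the PBS library, right, with colour on a log2(CPM + 1) scale. The Tgfb2 column is brightest in Muller glia-like cells and clusters 12 and 15 of the NaIO3 library (218 to 280 CPM), and the Ltbp1 column in mural-like cells of the PBS library (477 CPM).

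The sequences just before the start sites of Tgfb1 and Tgfb2 are shown because these ligands had the highest ratios between the whole libraries. Each line gives the 250 bases 5′ of the start site on the gene's own strand, from RefSeq on GRCm38.p6, at chr7:25686752-25687001 for Tgfb1 (plus strand) and chr1:186705990-186706239 for Tgfb2 (minus strand). Capitals mark matches to the GC box GGGCGG, the TATA box TATAAA, the E-box CACGTG, the AP-1 site TGANTCA, the cyclic AMP response element TGACGTCA and the SMAD box CAGACA, searched on both strands; the matches do not overlap.
Tgfb1: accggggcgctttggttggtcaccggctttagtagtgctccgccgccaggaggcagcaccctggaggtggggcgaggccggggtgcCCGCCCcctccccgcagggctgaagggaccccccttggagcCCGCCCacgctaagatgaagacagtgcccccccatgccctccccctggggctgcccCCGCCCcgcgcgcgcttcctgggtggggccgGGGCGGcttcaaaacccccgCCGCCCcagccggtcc
Tgfb2: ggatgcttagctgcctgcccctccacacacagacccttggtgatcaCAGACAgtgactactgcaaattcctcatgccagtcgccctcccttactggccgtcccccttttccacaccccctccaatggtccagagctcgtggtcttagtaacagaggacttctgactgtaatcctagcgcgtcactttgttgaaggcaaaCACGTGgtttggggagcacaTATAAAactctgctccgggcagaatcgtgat
The Tgfb1 window is 75.2% G and C and holds 5 GC boxes, with no match to the other motifs. The Tgfb2 window is 53.6% G and C and holds 1 TATA box, 1 E-box and 1 SMAD box, with no match to the others. Of 32851 such windows in the RefSeq table, 32.7% hold a GC box, 12.4% a TATA box, 6.02% this E-box, 6.75% the AP-1 site, 1.55% the cyclic AMP response element and 17.1% a SMAD box. A match describes letters and does not show that a factor binds there.

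Tgfb1, the ligand best known from immune cells and platelets, was held in the NaIO3 library mostly by macrophage-like cells and cluster 15, and in the PBS library was divided over more groups. In the NaIO3 library cluster 15 held 132 CPM (118 to 146) and macrophage-like cells 130.5 CPM (122 to 140), with intervals that overlap, followed by dendritic-like cells at 102 CPM (61.4 to 159). Macrophage-like cells held 46.8% of the library's Tgfb1 UMIs and cluster 15 held 19.5%. In the PBS library cluster 13, which carried MHC class II genes with macrophage genes such as Pf4 and Ms4a7, held 199 CPM (156.3 to 249.0). Endothelial-like cells followed at 182 CPM (135 to 240) and macrophage-like cells at 133 CPM (74.2 to 219), again with overlapping intervals. Of the PBS UMIs of Tgfb1, cluster 13 held 24.0%, RPE-like cells 20.5%, fibroblast-like cells 16.4% and endothelial-like cells 16.0%. Within macrophage-like cells Tgfb1 was thus at 130.5 CPM in NaIO3 and 133 CPM in PBS, a ratio of 0.984 (0.593 to 1.77) that rests on 15 PBS UMIs. The share of macrophage-like cells in the libraries was 11.99% and 0.546%, which stands beside the 5.40-fold ratio of the whole libraries; the part of each was not tested. The genes most alike to Tgfb1 over the 24 groups of at least 20 cells were Rgs19 (Pearson r of 0.910 on log2(CPM + 5)), Il10rb (0.903) and Ppp1r18 (0.896), among 11149 genes.

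Tgfb2, on chromosome 1 (186622792 to 186705989, minus strand), was highest in the NaIO3 library in Muller glia-like cells and in clusters 12 and 15. Muller glia-like cells, the radial glia of the retina, had 280 CPM (229 to 339), cluster 12 had 247 CPM (230 to 266) and cluster 15 had 218 CPM (201 to 237). Among groups of at least 20 cells fibroblast-like cells came next at 50.0 CPM (30.9 to 76.4), below these intervals, while the 12 NaIO3 cells of cluster 26 had 160.0 CPM (96.3 to 250). Surface epithelium-like, RPE-like and macrophage-like cells were at 5.03, 4.91 and 3.87 CPM, with overlapping intervals. Clusters 12 and 15 gave 40.9% and 31.8% of the 1767 Tgfb2 UMIs of the NaIO3 library, from 3.25% and 2.34% of its cells. These cells were deep, with medians of 23227 and 28731 UMIs against 9896 over the library. Their share of all UMIs was therefore larger than their share of cells. By level they stood at 247 and 218 CPM, against 36.5 CPM over the library. The PBS library had no cell of either cluster and 3 Muller glia-like cells, and its 197 Tgfb2 UMIs came mostly from fibroblast-like cells (35.0%), pigment-led cells (19.8%) and RPE-like cells (16.2%). The highest PBS levels were 74.3 CPM (46.5 to 112) in cluster 26, a neuronal cluster led by Cartpt and Meg3, and 47.7 CPM (37.1 to 60.3) in fibroblast-like cells, with endothelial-like cells at 47.4 CPM and mural-like cells at 45.8 CPM not separable from them.

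Counted by cells, Tgfb2 was widespread in those NaIO3 clusters. After each cell was thinned to 3000 UMIs, 49.2% of cluster 12 cells (40.1 to 58.3), 46.1% of cluster 15 cells (35.4 to 57.0) and 46.7% of Muller glia-like cells (31.7 to 62.1) had a Tgfb2 UMI. Without thinning these shares were 89.5%, 94.4% and 75.6%, at median depths of 23227, 28731 and 6724 UMIs. Macrophage-like cells, in which little Tgfb2 is expected, had a Tgfb2 UMI in 1.53% of thinned cells (0.618 to 3.13) at a median depth of 11905 UMIs. RPE-like cells of the same library had one in 1.499% (0.841 to 2.46) at 11918 UMIs, which is no higher than in macrophage-like cells, so the share is not read as expression. Genes most alike to Tgfb2 over the 24 groups were Gpr153 (r of 0.931), Adamts5 (0.881) and Irs1 (0.878).

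Clusters 12 and 15 were checked against the markers of their possible cell types, since they hold most of the Tgfb2. Their summed RPE markers stood at 17.2% and 13.6% of the library mean, surface epithelium markers at 16.6% and 13.4% and macrophage markers at 17.9% and 15.1%. Mural markers stood at 331% and 699% of the library mean and fibroblast markers at 210% and 884%, but these rested on the genes for collagen I and on Acta2 and Tagln. Col1a1 and Col1a2 were at 1131 and 2012 CPM in cluster 15, above the 1016 and 1551 CPM of PBS fibroblast-like cells. Acta2 and Tagln were at 1819 and 999 CPM in cluster 15, against 11040 and 7345 CPM in PBS mural-like cells. The fibroblast genes Lum and Pdgfra were at 1.37 and 1.03 CPM in cluster 12 and at 1.56 and 1.17 CPM in cluster 15. The mural genes Rgs5 and Myh11 were at 2.73 CPM or less in both. Single levels of the other listed fibroblast and mural markers are not given here. Both clusters had 8 of 8 fibroblast markers with a UMI, and cluster 12 had no UMI of the mural marker Kcnj8. Otx2, a transcription factor of RPE and of photoreceptors, was at 280 and 130 CPM, and the cell cycle inhibitor gene Cdkn2a at 195 and 833 CPM. Melanocyte markers, which RPE shares, were at 119% of the library mean in cluster 12 and 18.3% in cluster 15. Median doublet scores were 0.0515 and 0.0565, against 0.0579 over the NaIO3 library. Tgfb1, Tgfb2, Tgfb3, Ltbp1 and Tgfbi were themselves among the variable genes of the clustering. With all 9 genes and the other pathway genes left out of it, 107 of the 124 cells of cluster 12 and 87 of the 89 cells of cluster 15 again shared a cluster, in which Tgfb2 was at 206 and 227 CPM.

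**Figure D2:**
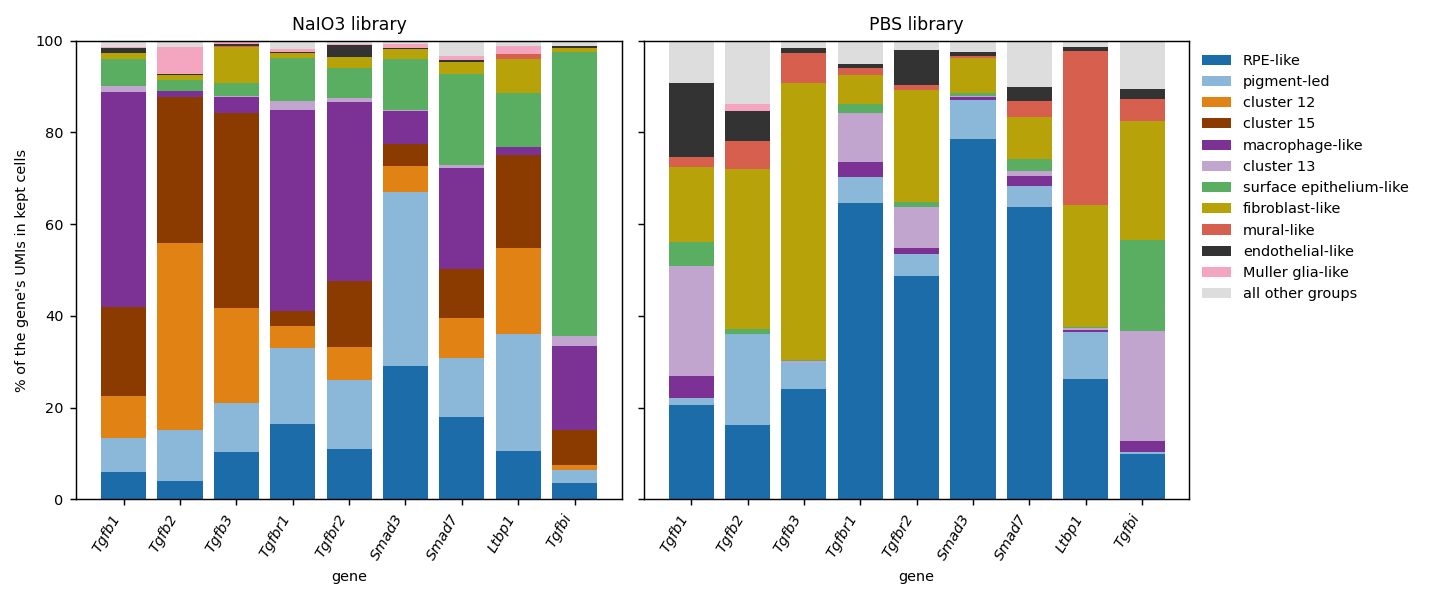
Share of each gene's UMIs (per cent of those in kept cells, y axis) held by each group of cells (colours) in the NaIO3 library, left, and the PBS library, right. Clusters 12 and 15 hold 40.9% and 31.8% of NaIO3 Tgfb2 UMIs. RPE-like cells hold 78.5% of PBS Smad3 UMIs, at a level of 96.4% of the library mean, so this share shows no concentration there.

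Tgfb3, the third ligand (chromosome 12, 86056745 to 86079041, minus strand), was highest in fibroblast-like cells, mural-like cells and cluster 15, and was lower in NaIO3 than in PBS fibroblast-like cells. Fibroblast-like cells held 105 CPM (76.1 to 141) in NaIO3 and 160 CPM (140 to 182) in PBS, a ratio of 0.656 (0.464 to 0.909). Within the PBS fibroblast-like cells the level ran from 18.4 CPM in cluster 21 to 409 CPM in cluster 20, which was led by Dcn, Myoc and Serpinf1, so the mix of these clusters moves the group's level. Cluster 15 held 93.1 CPM (81.6 to 106) and cluster 12 40.1 CPM (33.2 to 48.1) in NaIO3, and mural-like cells 95.4 CPM (61.7 to 141) in PBS. The NaIO3 level of cluster 15 overlaps that of fibroblast-like cells. Of the NaIO3 UMIs of Tgfb3, cluster 15 held 42.5%, cluster 12 20.8% and fibroblast-like cells 7.83%, and fibroblast-like cells held 60.5% of those in PBS. The genes most alike were Mrc2 (r of 0.967), Ccdc80 (0.95) and Igdcc4 (0.947).

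Both receptor genes were low in RPE-like cells. Tgfbr1 was highest in macrophage-like cells and cluster 13, and Tgfbr2 was also high in endothelial-like and fibroblast-like cells. Tgfbr1, which encodes the type I kinase (chromosome 4, 47353222 to 47414931, plus strand), was at 79.1 CPM (72.3 to 86.4) in NaIO3 and 203 CPM (129 to 305) in PBS macrophage-like cells, the highest level of a group of at least 20 cells in each library. That is a ratio of 0.389 (0.256 to 0.620), based on 491 UMIs in NaIO3 and 23 UMIs in PBS. Cluster 13 was at 204 CPM (129 to 306) in its 19 NaIO3 cells, above macrophage-like cells, and at 199 CPM (156.3 to 249.0) in PBS, where the intervals overlap. The next NaIO3 levels were 28.6 CPM in fibroblast-like cells, 26.8 CPM in dendritic-like cells and 24.0 CPM in Muller glia-like cells, whose intervals overlap. RPE-like cells had 12.8 CPM (11.01 to 14.8) in NaIO3 and 11.9 CPM (10.8 to 13.02) in PBS. Endothelial-like cells of the PBS library had 21.9 CPM (8.02 to 47.6), which overlaps the RPE-like interval. The genes most alike to Tgfbr1 were Il6ra (r of 0.862), Adap2 (0.856) and P2ry6 (0.846).

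Tgfbr2, which encodes the type II receptor that binds the ligand first (chromosome 9, 116084293 to 116175360, minus strand), was spread more widely. In NaIO3 it was at 76.2 CPM (69.5 to 83.4) in macrophage-like cells, 69.0 CPM (46.2 to 99.1) in fibroblast-like cells and 66.6 CPM (57.0 to 77.3) in cluster 15, with overlapping intervals. In PBS it was at 149 CPM (107 to 203) in endothelial-like cells, 127 CPM (93.7 to 169) in cluster 13, 91.9 CPM (77.0 to 109) in fibroblast-like cells and 70.7 CPM (30.5 to 139) in macrophage-like cells. Within the PBS fibroblast-like cells, the 26 cells of cluster 32 had 264 CPM (178 to 377). Muller glia-like cells, with the highest Tgfb2 level in NaIO3, had 2 Tgfbr2 UMIs, or 5.33 CPM (0.645 to 19.2). Cells with a UMI of both receptor genes made up 5.03% of NaIO3 macrophage-like cells after thinning (3.22 to 7.46), against 0.100% of NaIO3 RPE-like cells (0.00253 to 0.555), and 35.0% and 2.10% without thinning, at nearly the same median depth. The thinned RPE-like share was 1 cell of 1001. In PBS the thinned share was 9.88% (4.36 to 18.5) in cluster 13 and 8.70% (1.07 to 28.0) in macrophage-like cells. Whether cells held both genes more often than the share of each gene alone gives was not tested. The genes most alike to Tgfbr2 were Dab2 (r of 0.894), Fmnl3 (0.889) and the ligand Tgfb1 (0.888).

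The mediators divided differently. Smad3, the transcription factor that carries the signal to the nucleus (chromosome 9, 63646767 to 63757994, minus strand), was the gene among the 9 whose RPE-like level stood nearest to its library mean, at 97.2% in NaIO3 and 96.4% in PBS. Fibroblast-like cells held 38.1 CPM (21.8 to 61.9) in NaIO3 and 26.9 CPM (19.2 to 36.8) in PBS, the highest level in each library, though the NaIO3 interval overlaps those of pigment-led cells (24.2 CPM) and Muller glia-like cells (21.3 CPM) and the PBS interval those of several small groups. RPE-like cells held 29.0% of the Smad3 UMIs in NaIO3 and 78.5% in PBS, and pigment-led cells held 37.9% and 8.59%. With levels near the library means, the RPE-like shares are close to that group's share of all UMIs. Smad7, the inhibitor, on chromosome 18, was highest in PBS cluster 29 at 239 CPM (161 to 341), from 30 UMIs in 21 cells of a cluster without a cell type name. In NaIO3 fibroblast-like cells were highest at 40.5 CPM (23.6 to 64.8), with an interval that overlaps that of cluster 15 at 28.0 CPM. Macrophage-like cells held Smad7 at 24.0 CPM (20.3 to 28.2) in NaIO3 and 106 CPM (54.8 to 185) in PBS, a ratio of 0.226 (0.126 to 0.448) on 12 PBS UMIs. Genes most alike were Zdhhc1 (r of 0.850), Efs (0.789) and Wbp1l (0.781) for Smad3, and Spsb1 (0.875), Map7d1 (0.870) and Agpat4 (0.863) for Smad7.

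Ltbp1, which anchors latent ligand in the matrix (chromosome 17, 75005568 to 75392512, plus strand), was highest in mural-like cells in PBS. Mural-like cells, the contractile cells around vessels, held 477 CPM (397 to 568), about 33.6% of the library's Ltbp1 UMIs from 68 cells. Their clusters differed, with 613 CPM (506 to 736) in cluster 23 and 134 CPM (64.3 to 247) in cluster 35. Cluster 32 of the PBS fibroblast-like cells, at 220 CPM (142 to 325), overlapped cluster 35. Fibroblast-like cells held 26.6% of the PBS UMIs, and RPE-like cells held 26.3% at a level of 2.55 CPM. Fibroblast-like cells held 61.9 CPM (40.4 to 90.7) in NaIO3 and 68.4 CPM (55.6 to 83.3) in PBS, a ratio of 0.905 (0.564 to 1.41). The NaIO3 library had 2 mural-like cells, so no mural level is given there, and its other Ltbp1 levels were led by cluster 15 at 27.6 CPM and cluster 12 at 22.6 CPM. The smooth muscle genes Myl9 (r of 0.936) and Tagln (0.919), and Jph2 (0.908), were most alike to Ltbp1.

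Tgfbi, the matrix protein gene induced by TGF-beta and mutated in human corneal dystrophies (chromosome 13, 56609523 to 56639562, plus strand), was held mainly by surface epithelium-like cells in NaIO3. They had 120.1 CPM (113 to 128) in NaIO3 and 78.5 CPM (61.4 to 98.8) in PBS, a ratio of 1.53 (1.20 to 1.97), and held 61.8% of the NaIO3 UMIs. Among their clusters in NaIO3 the level was 139 CPM in cluster 4 and 121 CPM in cluster 9, with Krt4-led cluster 11 lower at 40.7 CPM. Macrophage-like cells also differed among themselves, with 16.7 CPM (12.8 to 21.5) in Spp1-led cluster 6 and 85.5 CPM (73.7 to 98.7) in Lyz2-led cluster 8 of the NaIO3 library. Among the PBS groups cluster 13 was highest at 233 CPM (187 to 287). Taken alone, cluster 32 of the PBS fibroblast-like cells was higher, at 413 CPM (304 to 550). Fibroblast-like cells held 33.3 CPM (18.2 to 55.9) in NaIO3 and 64.95 CPM (52.5 to 79.5) in PBS, a ratio of 0.513 (0.270 to 0.904), and 47 of their 94 PBS UMIs came from the 26 cells of cluster 32, which had no NaIO3 cell. Without cluster 32 the PBS level was 35.2 CPM and the ratio 0.946 (0.481 to 1.75). The genes most alike were Fosb (r of 0.893), Myd88 (0.889) and Acsl5 (0.876).

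In RPE-like cells, the epithelium that the oxidant targets, Tgfb1, Tgfb2 and Tgfbi were 4-fold to 6-fold higher in NaIO3 from very low levels, Tgfb3, Smad3 and Tgfbr2 were higher by less than 2-fold, and Tgfbr1, Ltbp1 and Smad7 had intervals that include 1. Tgfb2 was at 4.91 CPM (71 UMIs) in NaIO3 and 0.832 CPM (32 UMIs) in PBS, a ratio of 5.90 (3.83 to 9.25). Tgfb1 was at 7.19 CPM (104 UMIs) and 1.66 CPM (64 UMIs), a ratio of 4.32 (3.13 to 5.99), and Tgfbi at 3.80 CPM (55 UMIs) and 0.936 CPM (36 UMIs), a ratio of 4.06 (2.62 to 6.36). These 3 genes were at least 2-fold higher and none of the 9 was at least 2-fold lower, where 8.57% and 2.66% of the 13549 genes with at least 20 UMIs passed those limits. A ratio above 1 was seen for 8 of the 9 genes, with Ltbp1 at 1.003, against 59.3% of all genes. The median log2 ratio was 0.62 over the 9 genes, which is the value of Smad3, and 0.08 over all genes. It describes the middle gene and not a like shift of all 9.

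These low levels stand beside the level of RNA from other cells in the same droplets. In RPE-like cells Tgfb1, Tgfb2 and Tgfbi were at 20.1%, 13.5% and 11.9% of their library means in NaIO3, and at 25.2%, 20.0% and 12.1% in PBS. Marker genes of cells that RPE is not, summed over each list, were at 14.6% (surface epithelium, 10 of 10 detected), 20.0% (macrophage, 10 of 10) and 13.5% (fibroblast, 8 of 8) in NaIO3, and at 19.4%, 31.1% and 10.00% in PBS, with the same numbers detected. Summed macrophage markers in RPE-like cells were thus at 1367 CPM in NaIO3 and 203 CPM in PBS. The part of such RNA in the ratios of Tgfb1, Tgfb2 and Tgfbi was not tested gene by gene. When a share of 16.6% in NaIO3 and 23.4% in PBS of the library mean was subtracted from every gene, Tgfb2 and Tgfbi fell below 20 UMIs, and Tgfb1 was left at 1.51 CPM and 0.157 CPM.

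Smad3 is well above that marker level. It was at 16.0 CPM (14.0 to 18.2, 232 UMIs) in NaIO3 RPE-like cells and 10.4 CPM (9.46 to 11.5, 402 UMIs) in PBS RPE-like cells, a ratio of 1.53 (1.30 to 1.81). The NaIO3 clusters of the group ran from 14.1 to 21.1 CPM and the PBS clusters from 10.3 to 12.4 CPM. Tgfbr2 was at 9.12 CPM (7.63 to 10.8) and 6.87 CPM (6.06 to 7.75), a ratio of 1.33 (1.07 to 1.64), and Tgfb3 at 4.01 CPM and 2.39 CPM, a ratio of 1.68 (1.19 to 2.35). These Tgfb3 levels lay well below its library means of 11.6 CPM in NaIO3 and 8.09 CPM in PBS. The part of RNA from other cells in the Tgfb3 ratio was not tested. With the free RNA share subtracted Tgfb3 was at 2.49 CPM and 0.654 CPM, a log2 ratio of 1.92, and with pathway genes left out of clustering the log2 ratio of Smad3 was 1.01, so neither stayed under 2-fold in every setting. Tgfbr1 had a ratio of 1.08 (0.902 to 1.28) and Smad7, at 8.36 CPM and 8.71 CPM, a ratio of 0.960 (0.773 to 1.19).

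**Figure D3:**
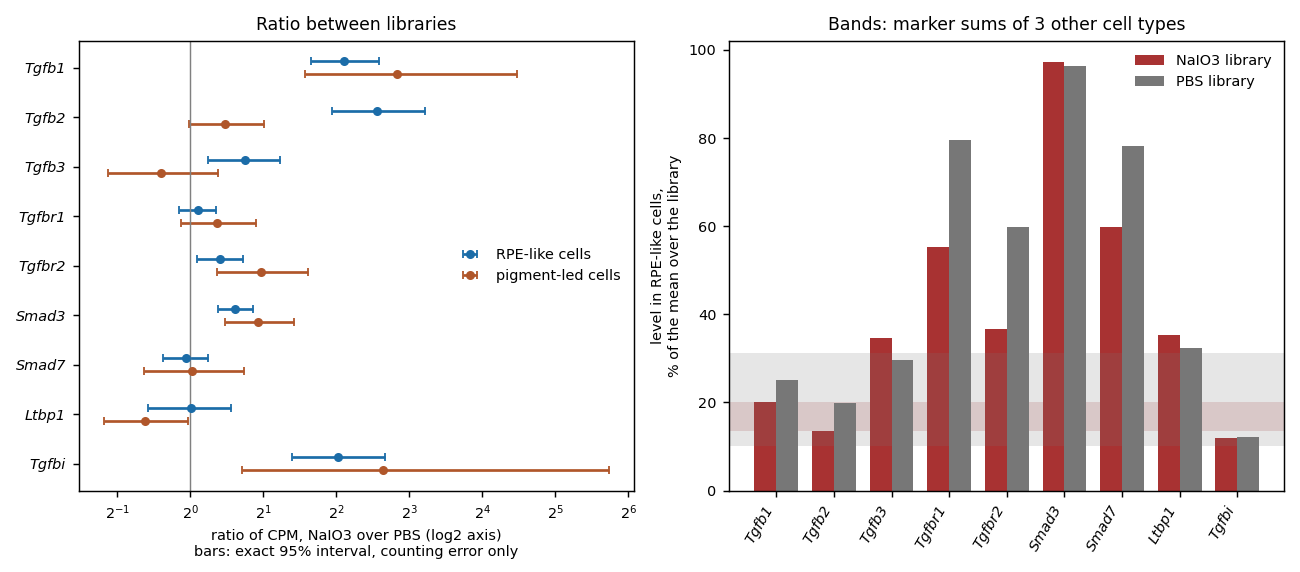
Left, ratios of CPM, NaIO3 over PBS, on a log2 axis for the 9 genes in RPE-like and pigment-led cells, with exact 95% intervals for counting error. Right, level in RPE-like cells as per cent of the library mean for NaIO3 and PBS, where shaded bands span the summed markers of surface epithelium, macrophages and fibroblasts (13.5% to 20.0% in NaIO3 and 10.00% to 31.1% in PBS); Tgfb2 and Tgfbi lie within or below the bands and Smad3 near 100%.

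In pigment-led cells, compared as clusters 2 and 14 of NaIO3 against mainly cluster 5 of PBS, Smad3 and Tgfbr2 were also higher in NaIO3. Tgfb2 was higher too, but by less than in RPE-like cells and with an interval that includes 1. The median mitochondrial share of these cells was 13.6% in NaIO3 and 9.55% in PBS. Smad3 was at 24.2 CPM (21.6 to 27.1) in NaIO3 and 12.7 CPM (9.22 to 17.0) in PBS, a ratio of 1.91 (1.39 to 2.69), and Tgfbr2 at 14.7 CPM and 7.50 CPM, a ratio of 1.95 (1.29 to 3.07). Tgfb2 was at 15.7 CPM (13.6 to 18.04) and 11.2 CPM (8.0 to 15.4), a ratio of 1.39 (0.985 to 2.02). Its NaIO3 level was 10.4 CPM in cluster 2 and 46.2 CPM in cluster 14, whose leading genes include the cell division genes Top2a and Birc5. Tgfb1 had 128 UMIs in NaIO3 and 5 UMIs in PBS, a ratio of 7.10 (2.97 to 22.2), and Tgfbi had 45 and 2 UMIs, a ratio of 6.24 (1.63 to 53.1). Ltbp1 was at 7.12 CPM in NaIO3 and 10.96 CPM in PBS, a ratio of 0.650 (0.440 to 0.977). These 2 genes, Tgfb1 and Tgfbi, were at least 2-fold higher of the 9, where 13.5% of 12145 genes were; none was at least 2-fold lower, where 2.28% of genes were. In these NaIO3 cells the macrophage marker sum stood at 26.2% of the library mean and that of surface epithelium at 17.7%, against 41.8% and 24.7% in PBS, while Tgfb1 was at 28.7% and 21.8%; their part in the Tgfb1 ratio was not tested.

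In the other groups with at least 20 cells in both libraries the PBS counts were small. Among macrophage-like cells 3 of the 7 genes with at least 20 UMIs, Tgfbr1, Smad7 and Smad3, were at least 2-fold lower in NaIO3, where 23.4% of 10151 genes were. Smad3 rested there on 3 PBS UMIs and had a ratio of 0.352 (0.115 to 1.76). Median depth was 11905 UMIs in NaIO3 and 4198 UMIs in PBS macrophage-like cells, and clusters 6 and 8 held 272 and 163 of the NaIO3 cells against 18 and 5 of the PBS cells. Among surface epithelium-like cells Smad3 and Ltbp1 were at least 2-fold higher in NaIO3 by ratios with 0.5 added to each count, where 10.8% of 11002 genes were and 4.57% at least 2-fold lower, but they had only 4 and 1 PBS UMIs, with ratios of 2.60 (0.980 to 9.74) and 4.73 (0.803 to 192). No member was 2-fold apart in fibroblast-like cells, where 5.15% of 8663 genes were at least 2-fold higher and 5.43% lower, or among the 3 genes measured in dendritic-like cells, where 11.4% of 3243 genes were higher and 12.8% lower.

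The other genes of the pathway were read from 5 lists with 84 genes, 81 of which have a row. These lists were chosen with earlier results of these data known, so their counts beside all genes are descriptive. Among genes for latency and activation, 3 of 18 measured genes were at least 2-fold higher in NaIO3 RPE-like cells and 0 were lower, where 8.57% and 2.66% of all 13549 genes were. They were the protease gene Mmp9 (2.63 CPM in NaIO3 and 0.0520 CPM, from 2 UMIs, in PBS, a ratio of 50.5 with an interval of 13.1 to 432), the latent binding protein gene Ltbp2 (3.11 and 0.182 CPM) and Nrros (1.80 and 0.624 CPM), which holds latent TGF-beta 1 on myeloid cells. All 3 lay at 21.4% to 23.7% of their NaIO3 library means, close to the 20.0% of macrophage markers. Of the 6 listed integrin genes, Itgav and Itgb8 were highest in pigmented cells, Itgb5 in macrophage-like cells (511 CPM in NaIO3 and 486 CPM in PBS), Itgb1 and Itgb3 in cluster 15 (482 and 41.3 CPM) and Itgb6 in PBS cluster 31 (44.3 CPM). In RPE-like cells Itgav was at 501 CPM in NaIO3 and 542 CPM in PBS RPE-like cells, and Itgb8 was at 1507 CPM in NaIO3 and 1548 CPM in PBS, with pigment-led cells slightly above at 1697 and 1618 CPM. Thbs1, the thrombospondin that can activate latent ligand, was at 656 and 396 CPM in RPE-like cells, a ratio of 1.66 (1.61 to 1.70), and reached 4077 CPM in cluster 12.

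Of 8 measured co-receptors and other receptors, only Cd109 was at least 2-fold higher in NaIO3 RPE-like cells (1.24 and 0.234 CPM) and 0 were lower, a count near the 8.57% of all genes. Tgfbr3, the betaglycan gene that presents TGF-beta 2 to its receptors, was at 61.8 and 69.5 CPM in RPE-like cells and highest in pigment-led cells at 93.6 and 91.7 CPM. Eng and Acvrl1, receptors of endothelium, were highest in PBS endothelial-like cells at 485 and 197 CPM. Of 16 measured Smads and regulators only Pmepa1, a target gene whose product restrains the signal, was at least 2-fold higher, at 33.3 CPM in NaIO3 and 10.5 CPM in PBS, a ratio of 3.16 (2.77 to 3.62), and 0 were lower; the count of 1 is no larger a share than the 8.57% of all genes. Pmepa1 stood at 875 CPM in cluster 12 and 863 CPM in cluster 15, and its RPE-like level at 21.0% and 73.1% of the NaIO3 and PBS library means. The matrix antagonists had Bgn at least 2-fold higher (34.3 and 14.0 CPM) and Dcn lower (9.12 and 30.5 CPM) of 5 measured, too few to set against the shares of all genes, and both were highest in fibroblast-like cells.

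Genes known to respond to TGF-beta were at least 2-fold higher for 14 of 28 measured genes in NaIO3 RPE-like cells and lower for 1, the collagen gene Col3a1 (0.760 CPM in NaIO3 and 1.69 CPM in PBS), against 8.57% and 2.66% of all genes. Many of these genes respond to other signals too, and the list was chosen with earlier results of these data known. The count beside all genes is thus a description only. The largest ratios belonged to Spp1, the osteopontin gene (1180 and 2.68 CPM), Timp1, a protease inhibitor (10.5 and 0.234 CPM), and Fn1, fibronectin (21.3 and 1.07 CPM). Of the 14 genes 11 stood at or under the 20.0% of the NaIO3 library mean reached by macrophage markers, Spp1 at 14.9%, Timp1 at 18.7% and Fn1 at 13.7%, and their part in the ratios was not tested. Angptl4, a lipase inhibitor, stood at 114% of the library mean, with 56.9 CPM in NaIO3 and 22.4 CPM in PBS, a ratio of 2.53 (2.30 to 2.79). The highest level of 12 of the 31 response genes with a row, and of 7 of the 19 latency and activation genes, was in cluster 15. Among them Cdkn1a, an inhibitor of cell division, was at 1179 CPM there and 780 CPM in cluster 12, against 41.0 CPM in NaIO3 RPE-like cells. Col1a1, Fn1, Timp1, Postn and Cdkn2b are among the leading genes by which cluster 15 stands out, so their level there is part of how it was formed.

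**Figure D4:**
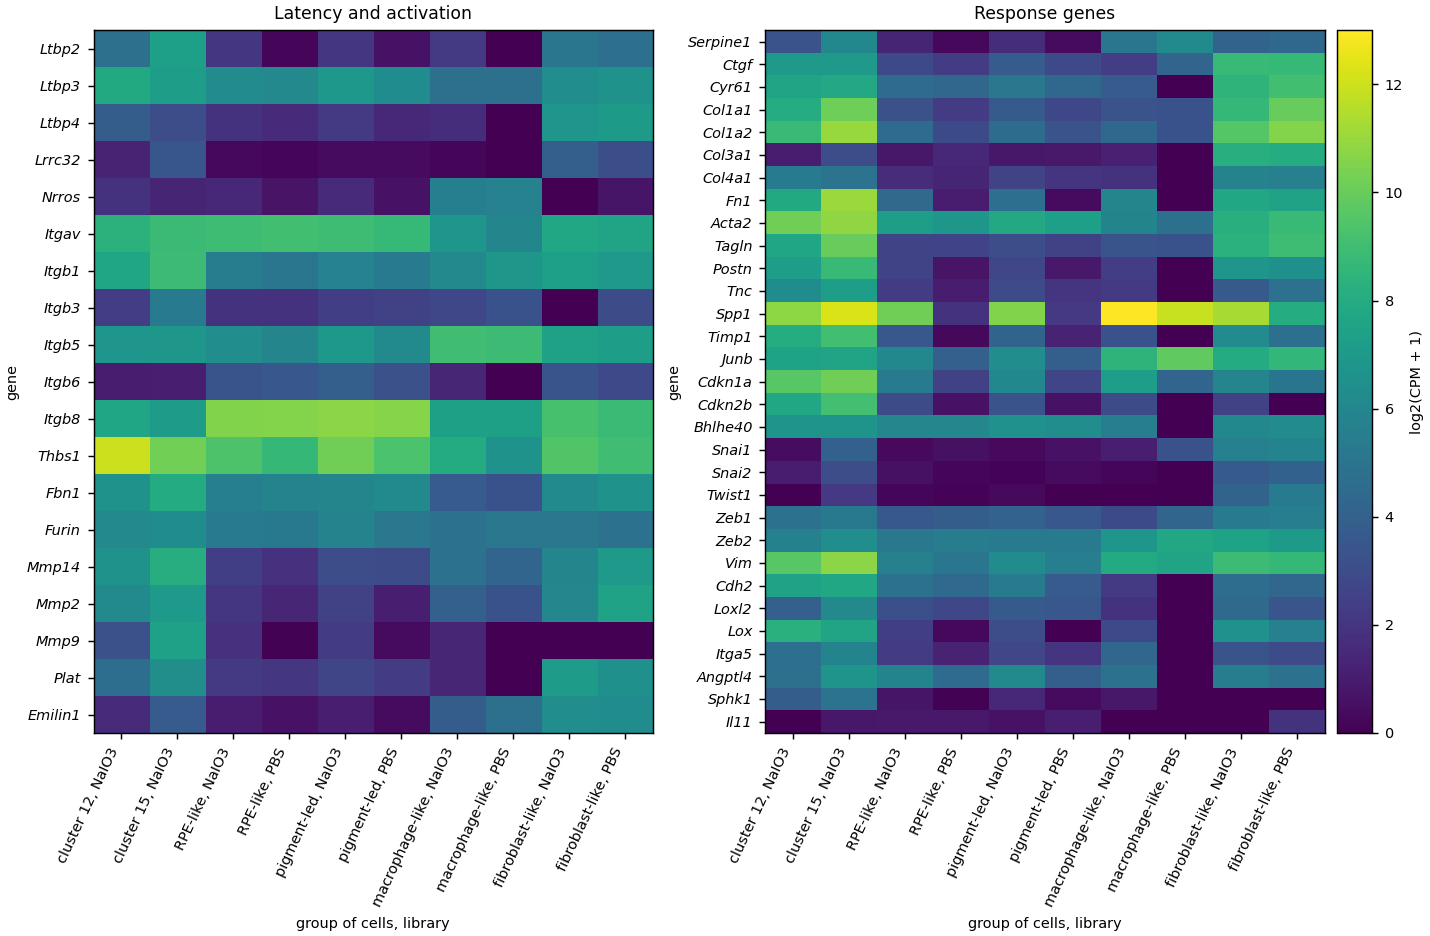
Levels of the latency and activation genes, left, and the response genes, right, in rows, on a log2(CPM + 1) colour scale, in clusters 12 and 15 and in the larger groups of cells of both libraries (columns). Itgb8 and Itgav are bright in pigmented cells of both libraries, Thbs1 reaches 4077 CPM in cluster 12, and Spp1 is brightest in macrophage-like cells.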

How the data were processed

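Droplet single-cell libraries of RPE and choroid cells were made on the 10x Genomics platform, per the labels' protocols. The authors deposited whole-number UMI counts for each gene and barcode, not normalised, made with Cell Ranger 3.0.2 on mm10 per the submitters' processing notes; no source used here gives the annotation or the strand and multi-mapping options. A barcode had to show 500 genes or more and no more than 25% mitochondrial counts; 114 failed in NaIO3 and 231 in PBS. Doublets were ranked with Scrublet and the top 0.8% per 1000 barcodes removed (132 and 171), since its automatic threshold marked 3 and 0. Cells were clustered together without integration in scanpy 1.11.5 (2000 variable genes, 30 components, Leiden resolution 1).

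A name needed the highest mean log2 fold over a class's markers (at least 1.5), 3 markers at 2-fold, and most markers among the 10 leading genes; the limit of 1.5, and leaving clusters 26 and 29 unnamed, were chosen after the clusters were seen. The genes, lists and markers were chosen with earlier results of these data known. Counts were summed per group and library; levels have exact Poisson, ratios exact conditional binomial and shares Clopper-Pearson 95% intervals. Genes with at least 20 UMIs over both libraries were compared, with 0.5 added for log2 ratios and the 2-fold rule. Ratio intervals were tested on simulated data, whose outcome is not reported here, and they cover counting error only. All 9 genes are named, with the listed pathway genes of largest fold in RPE-like cells, those that describe a group by its highest level, and, for each gene at 20 CPM or more in a group, the 3 genes with the highest correlation over groups of at least 20 cells. Angptl4, Cdkn1a and the marker genes of clusters 12 and 15 were chosen after their values were seen. Identifiers of 27645 gene rows matched GENCODE M21, which gave the coordinates. RefSeq promoter windows were matched by symbol for 7 of the 9 genes. Alternatives were other clusterings and filters, TMM scaling (edgeR 4.0.16), subtraction of a free RNA share and no thinning.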

Additional observations from a re-analysis of the deposited data

Results flagged for a closer look

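Tgfb3 and Tgfbi had ratios on opposite sides of 1 in different cells, with intervals for counting error that exclude 1 when all clusters are counted. Tgfb3 had a ratio, NaIO3 over PBS, of 1.68 in RPE-like cells and 0.656 in fibroblast-like cells. Its RPE-like levels, 4.01 CPM in NaIO3 and 2.39 CPM in PBS, lay below the library means of 11.6 and 8.09 CPM. The part of RNA from other cells in that ratio was not tested. Tgfbi had a ratio of 4.06 in RPE-like cells, 6.24 in pigment-led cells and 1.53 in surface epithelium-like cells, against 0.513 in fibroblast-like cells. With 1 library for each treatment these differences between cell groups were not tested. The 46 NaIO3 fibroblast-like cells included none of cluster 32, which held 47 of the 94 Tgfbi UMIs of the PBS group. Without that cluster, left out after seeing the data, the Tgfbi ratio in fibroblast-like cells was 0.946 (0.481 to 1.75), so its call there ended, and the Tgfb3 ratio was 0.635 (0.448 to 0.881). The pigment-led Tgfbi ratio rests on 2 PBS UMIs, and Tgfbi in RPE-like cells was at 11.9% of the library mean in NaIO3 and 12.1% in PBS, near or below the marker RNA of other cells.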

How the results depend on the processing

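No paired analysis was possible because each treatment has 1 library and no result comes from a test. In RPE-like cells the median log2 ratio of the 9 genes was 0.62, and it lay between 0.50 and 0.82 over 11 alternatives (clustering at resolution 0.5, each library clustered alone, no doublets removed, a mitochondrial limit of 10%, all barcodes, pigment-led cells counted in, TMM scaling, free RNA subtracted, a minimum of 1 UMI, and, added after seeing the data, pathway genes left out of clustering and only the biggest RPE-like cluster per library). In the main setting that median is the value of Smad3, the middle gene of the 9. The number of genes above a ratio of 1 was 8, became 7 under TMM scaling and under the mitochondrial limit of 10%, and 5 with the free RNA share subtracted, where only 7 genes kept 20 UMIs. There the log2 ratio was 3.16 for Tgfb1, 1.92 for Tgfb3 and 0.83 for Ltbp1, outside their intervals. Smad3 stayed above 0 in all 11 alternatives, at 0.50 to 1.01, and so did Tgfbr2, at 0.14 to 0.82. Smad7 was below 0 in each, at -0.23 to -0.04, and Tgfbr1 was above 0 in 10 of 11. Without thinning the share of cells with a UMI was higher for the Tgfb1 and Tgfb2 shares compared. Cluster 12 was named melanocyte-like when the pathway genes were left out of clustering, and clusters 12 and 15 merged at resolution 0.5 into a cluster of 248 NaIO3 cells with Tgfb2 at 216.5 CPM. Levels from fewer than 30 cells, such as PBS macrophage-like cells, are limited by depth.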
